A study of Homo sapiens with 8 samples.

Results

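ELK4, UHMK1, VGLL3, TRIM44 and AAK1 are 5 protein-coding genes whose mRNAs were high in immunoprecipitates (IP) of the nuclear protein hnRNP U relative to RNA without IP. They were picked by symbol for that property from a table of 13471 genes, of which 12116 are annotated as protein-coding, and each symbol was found once. The cells were hTERT-RPE1, a line derived from human retinal pigment epithelium and made immortal by telomerase, and their RNA was sequenced in 8 libraries that form 4 groups of 2. In the interphase groups, cells were held for 24 h in 2 mM thymidine, which stalls DNA replication. In the mitosis groups, the same block was followed by 6 h of release and an overnight hold in S-trityl-L-cysteine (STLC), which blocks Eg5, a kinesin motor of the mitotic spindle. Each phase has a group without IP (ip antibody none) and a group precipitated with the anti-hnRNP U antibody 3G6, both lysed in a buffer with NP-40 and depleted of ribosomal RNA. No control-antibody precipitate enters the comparisons, so RNA held by hnRNP U and RNA carried over with the beads cannot be told apart. The labels do not say whether replicates came from separate cultures, so p-values measure only the spread between these libraries.

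hnRNP U, also called SAF-A or scaffold attachment factor A, is an abundant nuclear protein that binds both RNA and DNA and is known for tying long nuclear RNAs to chromatin. At mitosis the nuclear envelope opens and much RNA leaves the chromosomes, and the series title places phosphorylation of hnRNP U by Aurora B in that step. The 5 mRNAs encode proteins of unrelated pathways. ELK4 is an ETS-domain transcription factor that binds DNA together with SRF. UHMK1 is a kinase with a U2AF homology motif that phosphorylates the splicing factor SF1 and the cell cycle inhibitor CDKN1B. VGLL3 is a cofactor of TEAD transcription factors. TRIM44 is a tripartite motif protein that lacks the usual RING domain. AAK1 is a kinase that phosphorylates the AP2 adaptor of clathrin-coated vesicles.

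The property the 5 genes shared most plainly was a very long annotated 3′ UTR. It was not a criterion of their choice but is not independent of it. Over coding genes, 3′ UTR length varied with the effect of the IP (Spearman's rho 0.52 in interphase and 0.38 in mitosis). Lengths and positions are from GENCODE 29 (GRCh38, the assembly of the gene table), and the positions span the whole gene, not the transcript. The longest complete coding transcript of ELK4 (chromosome 1, 205597556 to 205631962, minus strand) has 10239 nt, of which 8603 nt are 3′ UTR. That of UHMK1 (chromosome 1, 162497251 to 162529629, plus strand) has 8478 nt with 7060 nt of 3′ UTR. VGLL3 (chromosome 3, 86876388 to 86991119, minus strand) has 10400 nt with 9055 nt of 3′ UTR. TRIM44 (chromosome 11, 35662805 to 35818007, plus strand) has 12964 nt with 11622 nt of 3′ UTR, and AAK1 (chromosome 2, 69457997 to 69674349, minus strand) has 11345 nt with 8082 nt of 3′ UTR. The 3′ UTR was 84.0% of the transcript in ELK4, 83.3% in UHMK1, 87.1% in VGLL3, 89.7% in TRIM44 and 71.2% in AAK1, against a median of 42.8% over 12042 coding genes of the table. All 5 had a longer annotated 3′ UTR than 96.6% or more of those genes, whose median was 1358 nt. Their whole transcripts were also longer than those of 92.5% or more of coding genes. For TRIM44 the measured interval holds only 6010 of the 12964 nt. Which transcripts these cells expressed was not examined. Coding sequences measured 981 nt in VGLL3, 1035 nt in TRIM44, 1260 nt in UHMK1 and 1296 nt in ELK4, all below the median of 1392 nt. That of AAK1, with 2886 nt, was longer than in 84.6% of coding genes.

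**Figure D1:**
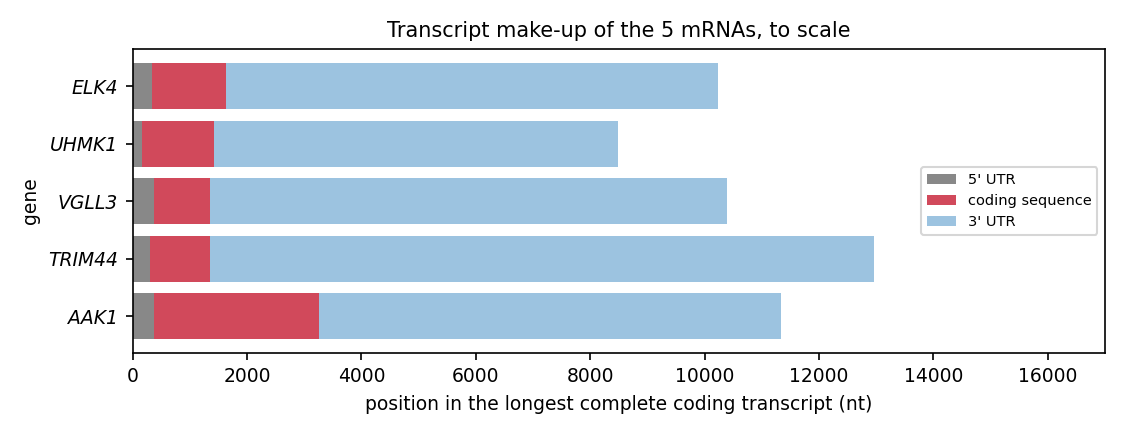
Lengths in nt, to scale, of the 5′ UTR, the coding sequence and the 3′ UTR in the longest complete coding transcript of each gene (GENCODE 29). The 3′ UTR takes from 71.2% (AAK1) to 89.7% (TRIM44) of the transcript.

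The GC content of these 3′ UTRs was 33.7% in VGLL3, 34.5% in UHMK1, 35.6% in ELK4, 37.9% in AAK1 and 40.8% in TRIM44, against a median of 41.8% over coding genes. TRIM44 was near that median, with 46.6% of coding genes below it, and AAK1 had 36.1% below it. Over the whole transcript of the 5 genes, GC content ran from 37.3% (VGLL3) to 42.8% (TRIM44), against a median of 47.9%. Their 5′ UTRs were richer in GC than their 3′ UTRs, with 72.2% to 80.0% in UHMK1, VGLL3, TRIM44 and ELK4, and 58.6% in AAK1. High GC in the 5′ UTR is common. Of coding genes, 72.8% lay below UHMK1, 86.7% below VGLL3, 87.5% below TRIM44, 91.7% below ELK4 and 27.9% below AAK1. The AU-rich pentamer ATTTA (searched on the sense strand, overlapping matches counted) occurred 26 times in the 3′ UTR of ELK4, 27 times in UHMK1, 45 times in VGLL3, 30 times in TRIM44 and 16 times in AAK1. Per kb this is 3.02, 3.82, 4.97, 2.58 and 1.98, each above the median of 1.77 per kb over coding genes. A match of these letters is common: 74.2% of coding genes with a 3′ UTR hold at least 1. To show the pentamers in place, 1 window of 29 bases is printed for each gene. It comes from the first place where such a window holds the most pentamers, so it need not be typical of the 3′ UTR. Sequences are from the GENCODE transcript, 5′ to 3′ on the sense strand in DNA letters, with the pentamers in capitals.
ELK4, chr1:205616116-205616144, minus strand: ttagaatctattATTTAaagaaatatttg
UHMK1, chr1:162522647-162522675, plus strand: tactttatacATTTATTTAatcctactaa
VGLL3, chr3:86945707-86945735, minus strand: aggATTTAaATTTAtgccacaATTTAaaa
TRIM44, chr11:35808046-35808074, plus strand: tgtaggaatcctATTTAtattatttttca
AAK1, chr2:69473677-69473705, minus strand: tctagtttctcaATTTAattgaaactatg
The VGLL3 window held 3 pentamers and the UHMK1 window 2 that overlap. Windows of the other genes held 1.

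Values are FPKM, fragments scaled by transcript length and by the size of the library, and the number of fragments behind them is unknown. Across genes, log2 values of replicates had a Pearson's r between 0.989 and 0.995. The share of the FPKM sum in the 10 highest genes was 58.4% to 63.0% without IP against 12.4% to 20.6% with IP, and the part of this difference in scale in the results below was not tested. Of 10 markers of retinal pigment epithelium, 6 are not rows of the table analysed here (RPE65, BEST1, RLBP1, TYR, TTR and SERPINF1), LRAT and PMEL lay at or below 0.192 FPKM without IP, and MITF (7.06 to 9.60 FPKM) and OTX2 (3.33 to 8.71 FPKM) were present. The keratin genes KRT8 and KRT18 stood at 43.1 to 58.9 and 35.9 to 79.2 FPKM. Of the mesenchymal markers, VIM had 1204 to 1916 FPKM and FN1 259.6 to 289.9 FPKM, while COL1A1 was low, with 0.195 to 1.06 FPKM. No other gene of the table overlaps the interval that the table gives for any of the 5 genes. For TRIM44 that interval ends at 35811053, before the annotated end, and holds 6010 of the 12964 annotated transcript nt.

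In the IP of both phases each of the 5 mRNAs stood well above its level without IP, in each library. These differences chose the genes and are given as a description without a test. ELK4 had 14.6 and 15.6 FPKM without IP in interphase (replicates 1 and 2) and 106.9 and 125.0 FPKM in the interphase IP. In mitosis it had 16.8 and 14.7 FPKM without IP and 65.8 and 53.0 FPKM in the IP. The lowest IP value of ELK4 was thus above its highest value without IP, and the mitotic IP lay below the interphase IP. UHMK1 was the most abundant of the 5 on this length-scaled measure, with 78.1 and 77.7 FPKM without IP and 482.7 and 538.4 FPKM with IP in interphase, and 117.5 and 105.8 FPKM without IP and 492.7 and 394.9 FPKM with IP in mitosis. Its IP values overlapped between phases. VGLL3 had 14.2 and 17.0 FPKM without IP and 94.8 and 112.5 FPKM with IP in interphase. In mitosis its values were 36.1 and 29.1 FPKM without IP and 147.4 and 108.8 FPKM with IP, so that the phases were apart without IP and overlapped in the IP. TRIM44 had 26.4 and 27.8 FPKM without IP and 109.1 and 119.2 FPKM with IP in interphase, and 36.5 and 34.7 FPKM without IP and 191.1 and 200.6 FPKM with IP in mitosis. Its mitotic IP libraries were the highest of its 8. AAK1, the least abundant, had 3.14 and 2.98 FPKM without IP and 14.1 and 13.8 FPKM with IP in interphase, and 7.23 and 6.33 FPKM without IP and 19.8 and 17.1 FPKM with IP in mitosis. The order of the 4 groups was the same for VGLL3, TRIM44 and AAK1, with mitosis above interphase in means without and with IP.

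**Figure D2:**
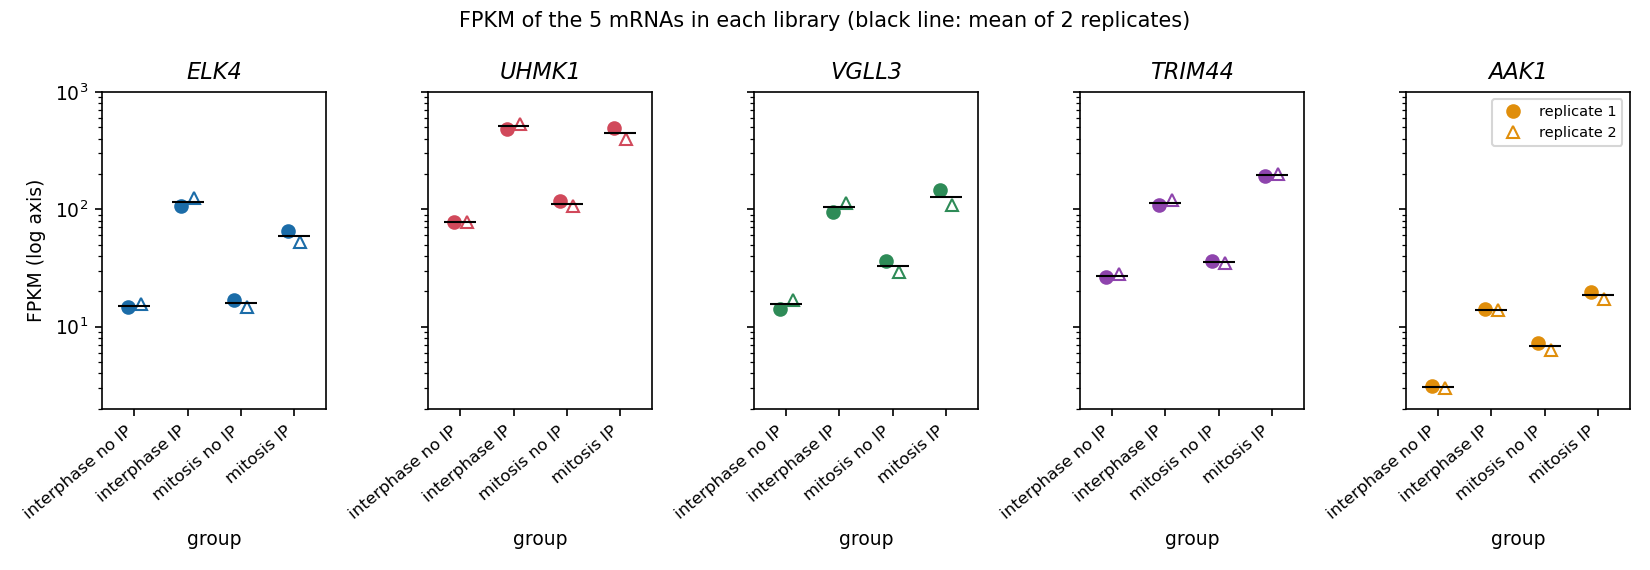
FPKM (log axis) of each mRNA in the 8 libraries, by group, with filled circles for replicate 1, open triangles for replicate 2 and a black line at the mean of 2. IP libraries lie above libraries without IP in both phases for all 5 genes, and ELK4 alone has a lower mean in the mitotic IP (59.4 FPKM) than in the interphase IP (116 FPKM) with no overlap of the libraries.

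In interphase the log2 fold change of IP over no IP, on the log2(FPKM + 1) scale, was 2.86 for ELK4, 2.69 for UHMK1, 2.66 for VGLL3, 2.04 for TRIM44 and 1.88 for AAK1 (standard errors, SE, 0.13, 0.16, 0.18, 0.10 and 0.12). The authors' deposited table gives ratios without an added constant, which run in interphase from 4.14 (TRIM44, replicate 1) to 8.001 (ELK4, replicate 2). The median over the 5 genes was 2.66, against 0.02 over all genes. Of all 13471 genes, limma (a moderated linear model fitted over the whole table) called 74.6% in interphase at a Benjamini-Hochberg adjusted p below 0.05, 37.6% as higher with IP and 37% as lower. In mitosis it called 64.5%, with 32.8% higher and 31.7% lower, so that being higher in the IP was common. What set these mRNAs apart by choice was the size. By log2 fold change in interphase, ELK4, UHMK1 and VGLL3 ranked 1, 2 and 3 among 12116 coding genes, TRIM44 ranked 131 and AAK1 250. In mitosis TRIM44 ranked 1, UHMK1 35, VGLL3 41, ELK4 75 and AAK1 677. There were 160 coding genes, the 5 included, at or above the lowest of these values in both phases (1.88 in interphase and 1.32 in mitosis, both those of AAK1). The ranks and this count rest on the log2(FPKM + 1) scale. By the deposited interphase ratios, without an added constant, AAK1 (4.47 and 4.64) lay above TRIM44 (4.14 and 4.29). By level, UHMK1 moved from rank 666 of the coding genes without IP to rank 13 in the interphase IP, and ELK4 from rank 3798 to rank 332.

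The question of the series, how hnRNP U and its RNAs change at mitosis, makes the comparison of phases the main one. In mitosis the log2 fold change of IP over no IP was 1.84 for ELK4, 1.98 for UHMK1, 1.93 for VGLL3, 2.43 for TRIM44 and 1.32 for AAK1, with a median of 1.93. The authors' deposited table gives mitotic ratios from 2.70 (AAK1, replicate 2) to 5.79 (TRIM44, replicate 2). For 4 of the 5 genes the value was smaller in mitosis. The difference, mitosis minus interphase, was -1.01 for ELK4 (SE 0.19; -0.89 and -1.14 in the replicate pairs), -0.72 for UHMK1 (SE 0.22; -0.55 and -0.89), -0.73 for VGLL3 (SE 0.25; -0.66 and -0.79) and -0.56 for AAK1 (SE 0.17; -0.52 and -0.59). TRIM44 went the other way, with 0.39 (SE 0.14; 0.35 and 0.44). Over all genes the median difference was 0.07, and 47.1% of genes were called, 19.9% as smaller in mitosis and 27.2% as larger. Because the difference is built from the effects that chose the genes, no test is given for it. With the trends of each library with transcript length and GC content removed, the differences of UHMK1, VGLL3 and AAK1 became 0.03, 0.06 and 0.14, that of ELK4 was -0.25 and that of TRIM44 was 1.09.

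**Figure D3:**
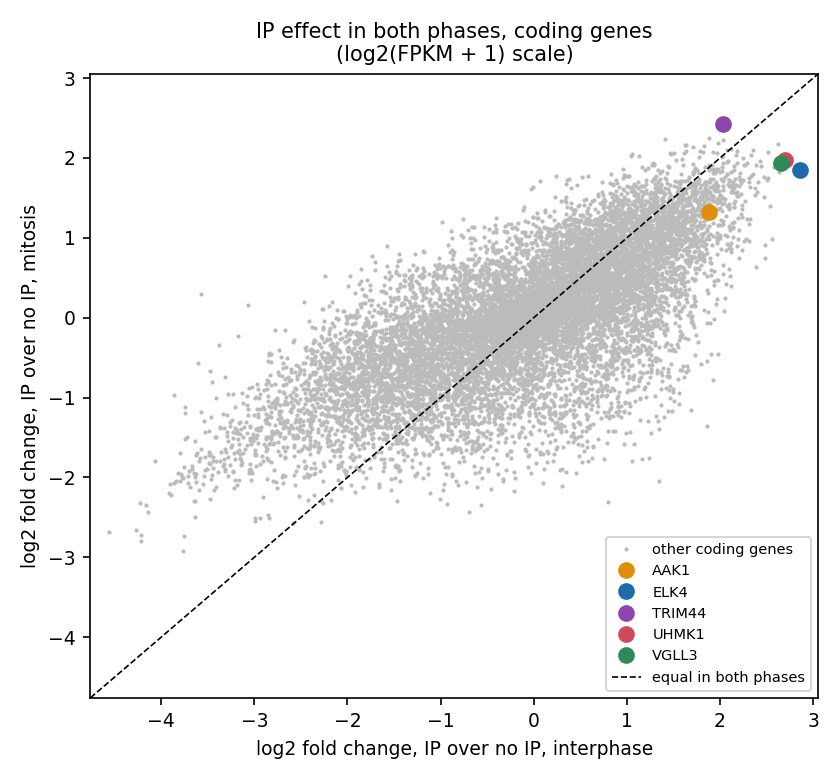
Log2 fold change of IP over no IP in interphase (x axis) and in mitosis (y axis) for coding genes (grey points) and the 5 mRNAs (coloured points), with a dashed line where both are equal. TRIM44 (2.04 and 2.43) lies above the line, and ELK4 (2.86 and 1.84), UHMK1, VGLL3 and AAK1 lie below it.

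Mitosis and interphase were then compared within the libraries without IP and within the IP libraries. Neither contrast itself chose the genes, but both use the libraries whose IP effects did. The change within the IP is the change without IP plus the difference of the IP effects. The change without IP uses the libraries against which the IP effects were measured. The p-values of both contrasts and the counts of calls are therefore not independent of the choice. Without IP, limma called 4 of the 5 mRNAs higher in mitosis and 0 lower, against 51.7% of all genes called, 26.2% higher and 25.5% lower. VGLL3 rose by a log2 fold change of 1.02 (SE 0.18, adjusted p 0.00158), from 15.6 ± 1.99 to 32.6 ± 4.94 FPKM (mean ± SD, n = 2). AAK1 rose by 0.94 (SE 0.12, limma adjusted p 0.000315), from 3.06 ± 0.117 to 6.78 ± 0.635 FPKM (n = 2). UHMK1 rose by 0.51 (SE 0.16, adjusted p 0.0228) and TRIM44 by 0.38 (SE 0.10, adjusted p 0.0126), both in the 2 of 2 replicate pairs. ELK4 did not pass the test, with a log2 fold change of 0.06, an adjusted p of 0.749 and pairs of 0.19 and -0.08, so its difference was not larger than the spread between replicates. Its sign turned to -0.06 with quantile normalization and to -0.02 with median centring. The calls of UHMK1 and TRIM44 were lost with the length and GC trends removed (log2 fold changes of 0.21 and 0.07, adjusted p 0.223 and 0.527). UHMK1 also lost its call without any 1 of the 4 libraries without IP (adjusted p 0.061 to 0.143), and TRIM44 without replicate 1 of either phase (adjusted p 0.0894 without the interphase library and 0.0847 without the mitotic one). In these bulk samples fewer cells with an RNA and less RNA per cell cannot be told apart.

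Within the IP libraries, 2 of the 5 mRNAs were called higher in mitosis and 1 lower, against 61.4% of all genes called, 35.8% higher and 25.6% lower. TRIM44 rose by 0.77 (SE 0.10, limma adjusted p 0.000194), from 114.2 ± 7.16 to 195.9 ± 6.72 FPKM (n = 2). AAK1 rose by 0.38 (SE 0.12, adjusted p 0.0201), and this value was 0.78 and 0.86 with the trends removed on the annotated transcript and inside the interval of the table (adjusted p 0.000332 and 0.00016). The call was lost with quantile normalization (0.20, adjusted p 0.157), with median centring (0.27, adjusted p 0.0697) and without replicate 1 or 2 of the interphase IP or replicate 1 of the mitotic IP (adjusted p 0.0548, 0.0689 and 0.132). ELK4 fell by 0.96 on the log2 scale (SE 0.13, limma adjusted p 0.000291), from 116 ± 12.8 to 59.4 ± 9.02 FPKM (n = 2), and remained called with the trends removed (-0.51, adjusted p 0.00731). ELK4 and TRIM44 thus moved in opposite directions in the IP, each in 2 of 2 replicate pairs, while without IP their log2 fold changes were 0.06 and 0.38. By the IP effects that chose the genes, ELK4 ranked 1 in interphase and TRIM44 ranked 1 in mitosis. Their opposite directions are therefore not independent of the choice. UHMK1 (-0.21, adjusted p 0.274) and VGLL3 (0.29, adjusted p 0.181) did not pass the test. VGLL3 was called with the trends removed (0.75, adjusted p 0.00448) and without replicate 2 of the mitotic IP (0.51, adjusted p 0.0424). UHMK1 was called lower with quantile normalization (-0.76, adjusted p 0.00376) and had 0.24 with the trends removed (adjusted p 0.151), and VGLL3 had -0.04 with quantile normalization.

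Length and base composition varied with the effect of the IP over coding genes in general. Over 12042 coding genes, Spearman's rho with the interphase log2 fold change was 0.59 for whole transcript length, 0.52 for 3′ UTR length, 0.51 for the span of the gene, 0.34 for coding length and 0.07 for 5′ UTR length. In mitosis these were 0.31, 0.38, 0.29, 0.07 and 0.06. For GC content rho was -0.75 in interphase and -0.59 in mitosis over the whole transcript, and for ATTTA per kb of 3′ UTR it was 0.51 and 0.37. These points share the same 8 libraries, and length and composition vary together, so no p-value is given. All 5 genes fell in the quintile of coding genes with the longest 3′ UTRs (3227 nt or more, 2409 genes), whose median log2 fold change was 0.85 in interphase and 0.46 in mitosis. The quintile with the shortest 3′ UTRs (437 nt or less) had medians of -0.84 and -0.39. ELK4, UHMK1 and VGLL3 were among the 920 genes that also lay in the quintile lowest in GC (up to 40.8%), with medians of 1.38 and 0.95 and 90th percentiles of 2.05 and 1.65. The interphase values of these 3 mRNAs, 2.66 to 2.86, were above that 90th percentile, as were their mitotic values of 1.84 to 1.98. As the genes were chosen for the size of these values, their place in the group is a description only. TRIM44 and AAK1 lay in the next quintile by GC.

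**Figure D4:**
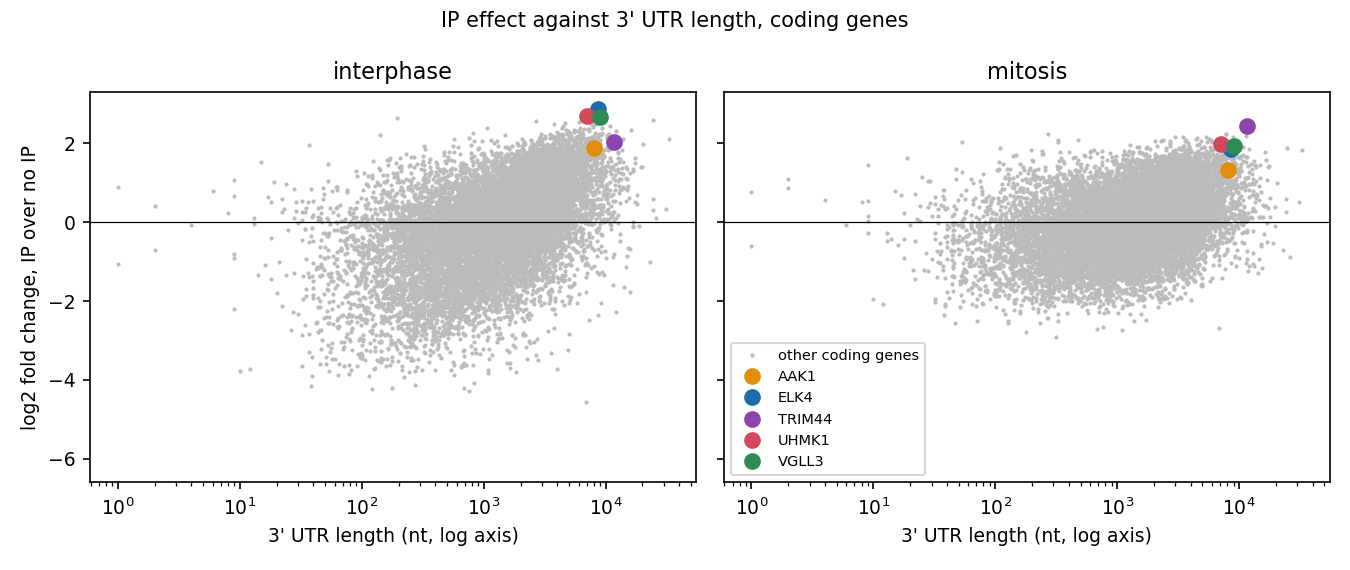
Log2 fold change of IP over no IP against 3′ UTR length (nt, log axis) in interphase (left) and mitosis (right) for coding genes (grey) and the 5 mRNAs (coloured). The 5 genes sit at the long end, between 7060 and 11622 nt, where the bulk of genes also lies above 0. Lengths are those of the longest annotated transcript. For TRIM44 (11622 nt) the measured interval holds 6010 of 12964 transcript nt.

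With the trends of each library with transcript length and GC content removed, all 5 mRNAs kept a positive difference between IP and no IP, at a smaller size. Interphase values were then 1.39 for ELK4, 1.21 for UHMK1, 1.12 for VGLL3, 0.80 for TRIM44 and 0.63 for AAK1. In mitosis they were 1.13, 1.24, 1.17, 1.89 and 0.77. The median of the 5 was then 1.12 in interphase and 1.17 in mitosis, in place of 2.66 and 1.93. Because the interval in the table for TRIM44 covers a shorter transcript, the removal was repeated with the transcript bases inside each gene's interval, an alternative chosen after seeing the data. TRIM44 then had 1.12 in interphase and 2.08 in mitosis, and AAK1 had 0.45 and 0.74.

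**Figure D5:**
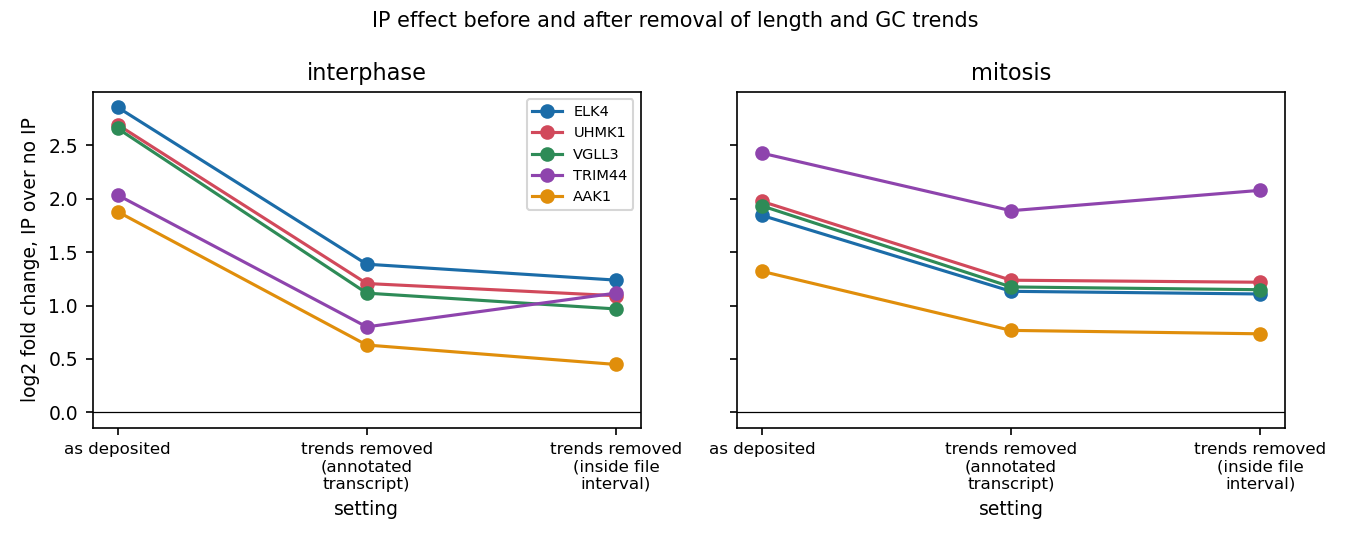
Log2 fold change of IP over no IP for the 5 mRNAs as deposited, with length and GC trends removed using the annotated transcript, and with only the transcript bases inside the interval of the table, in interphase (left) and mitosis (right). Values are lower after either removal and stay above 0 in both phases, and in mitosis TRIM44 stays highest (2.43, 1.89 and 2.08).

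The 5 profiles over the 8 libraries were alike but not equal. After each gene was centred on its own mean, Pearson's r between 2 of the mRNAs ran from 0.84 (ELK4 and AAK1) to 0.99 (VGLL3 and AAK1), a description over 8 libraries in which the IP accounts for the main contrast. Genes were also ranked by likeness, which rests on the same values that chose the mRNAs and is a description. Among 11266 other genes with a mean of at least 1 FPKM, the 5 whose profile lay nearest to the mean of the mRNAs by Euclidean distance were RALGPS2 (0.24), CLOCK (0.29), ATP11B (0.33), TLK1 (0.34) and ARNTL2 (0.37). All 5 encode proteins. CLOCK and ARNTL2 encode circadian transcription factors and TLK1 a kinase of chromatin assembly. Their interphase log2 fold changes were 2.33, 2.48, 2.19, 2.22 and 2.33, and their 3′ UTRs measured 5482, 7512, 3531, 2957 and 4757 nt. Nearest to the single mRNAs were ZBTB44 for ELK4 (distance 0.56), PTAR1 for UHMK1 (0.31), LCOR for VGLL3 (0.30), ZBED6 for TRIM44 (0.36) and MPP5 for AAK1 (0.21). ELK4 had the most distant neighbour of the 5. ZBED6, like TRIM44, had a larger log2 fold change in mitosis (2.24) than in interphase (1.88).

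Genes that work with the 5 proteins did not share one direction in the IP. Their lists were chosen with earlier results of these data known. Of 24 genes of SRF and ETS factors and their targets, 13 were called higher and 9 lower in the interphase IP, against 37.6% and 37% of all genes, with a median log2 fold change of 0.42. ELK3, a close relative of ELK4, was higher by 2.56 (limma adjusted p 5.36e-07), while ELK1, the third member of that subfamily, was lower by -0.86 (adjusted p 0.000265). MAPK3, a kinase that phosphorylates these factors, was lower by -2.21 and JUNB, a target of SRF, by -1.53 (0.011 with the trends removed on the annotated transcript). Without IP, 6 of the 24 rose in mitosis and 3 fell, against 26.2% and 25.5% of all genes, among them ETS1 with 1.19 and JUNB with -2.28 (adjusted p 0.000594 and 1.45e-05). The mitotic level of JUNB without IP was low, with 0.835 and 1.18 FPKM.

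For VGLL3, 13 of 15 listed genes of TEAD factors and their cofactors were in the table, 4 of them called higher and 3 lower in the interphase IP (median -0.02), against 37.6% and 37% of all genes. TEAD1, which VGLL3 binds, was higher by 2.06 (adjusted p 2.11e-06) and LATS1, a kinase upstream of YAP1, by 1.83. VGLL4, the other family member in the table, had -0.11 (adjusted p 0.39). Without IP, 3 of the 13 rose in mitosis and 5 fell, against 26.2% and 25.5% of all genes. LATS1 rose by 1.16 and the YAP target CTGF fell by 2.09 (adjusted p 0.000115 and 0.00146).

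For UHMK1, 10 of 11 listed genes of splice site recognition and substrates of UHMK1 were in the table, with 3 higher and 6 lower in the interphase IP (median -0.93), against 37.6% and 37% of all genes. PUF60 (-1.95) and U2AF2 (-1.82), which bind the polypyrimidine tract, had the largest called differences, both lower, with limma adjusted p of 5.82e-07 and 2.11e-06. SF1, the substrate of UHMK1, was lower by -0.82 in interphase and by -2.10 in mitosis. Without IP, 4 of the 10 rose in mitosis and 2 fell, against 26.2% and 25.5% of all genes, with SF3B1 at 1.98 and SF1 at 1.00.

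For AAK1, 16 of 17 listed genes of the AP2 adaptor, clathrin and related kinases were in the table, with 7 higher and 9 lower in the interphase IP (median -0.96), against 37.6% and 37% of all genes. The adaptor subunit AP2S1 (-3.18) and the clathrin light chains CLTB (-2.73) and CLTA (-2.35) were lower. Of the kinases related to AAK1, BMP2K was higher by 1.46, and GAK (-0.99) and STK16 (-1.39) were lower. Without IP, 7 of the 16 rose in mitosis, AP2B1 with 1.20 among them, and 1 fell, which was CLTA with -1.02, against 26.2% and 25.5% of all genes. In the list of 41 other TRIM genes, the interphase IP had 16 called higher and 13 lower, and the mitotic IP 11 and 11, with medians of 0.09 and 0.00. The shares of all genes were 37.6% and 37% in interphase and 32.8% and 31.7% in mitosis. TRIM33 (1.73) and TRIM2 (1.65) had the largest called interphase values, both below the 2.04 of TRIM44. Without IP, 4 of the 41 TRIM genes rose in mitosis and 8 fell, against 26.2% and 25.5% of all genes, and the largest called changes were those of TRIM2 (-1.55) and TRIM59 (1.22).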

How the data were processed

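Gene-level FPKM values for 8 libraries were taken as deposited by the authors, per the file headers, with the gene table on hg38. TopHat and StringTie are named in the submitters' processing notes, without versions or options, and the treatment of shared reads is not given in the sources used here. The ratio columns of IP over no IP were made by the authors per the file headers. They matched the recomputed FPKM quotients within a relative 5.11e-15. A table of lncRNAs on hg19 was not used here. Values were moved to log2(FPKM + 1) and fitted without a filter by limma 3.58.1 in R 4.3.3 (lmFit and trended eBayes), all 8 libraries together and a mean per group, 4 groups in all (4 residual degrees of freedom), and Benjamini-Hochberg adjustment over 13471 genes. Fold changes on this scale understate those of low genes. The script was tested on simulated data. GENCODE 29 matched 12665 genes by symbol and 460 by another RefSeq name (97.4% in all). In 1 alternative, library trends were removed with natural splines (4 degrees of freedom each) of log2 length and GC content. Other alternatives were a pseudocount of 0.1, a filter at a mean of 1 FPKM, quantile normalization, median centring, a replicate block and leaving out each library. Trend removal inside the table's intervals was added after seeing the data. The genes named are the 5 chosen, the 5 nearest profiles and the nearest to each, paralogs, and per list the 2 largest calls in the interphase IP and the 2 in mitosis against interphase without IP. The 5 genes and the lists were chosen with earlier results of these data known. The number of fragments is unknown, so no counting interval is given.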

Additional observations from a re-analysis of the deposited data

Results flagged for a closer look

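The effect of the IP differed between mitosis and interphase, by the limma call at an adjusted p below 0.05, for 15 of 23 named genes of the lists and 4 of 10 genes nearest in profile, where 47.1% of all genes were called. All but the paralogs were named for values that enter this difference (the interphase IP, the change without IP or the whole profile), so their differences are given as a description with no p. The paralogs of AAK1 were named by symbol. Of these, BMP2K was higher in the IP by 1.46 in interphase and 0.50 in mitosis (difference -0.96, adjusted p 0.000756). STK16 was lower by -1.39 in interphase and had 0.26 in mitosis (difference 1.64, adjusted p 0.00012; 0.26 itself had an adjusted p of 0.0745). The difference was not called by limma for GAK (-0.33, adjusted p 0.242), ELK1 (-0.41, adjusted p 0.0988) and VGLL4 (-0.23, adjusted p 0.249). These too are paralogs named by symbol alone. ELK3, also a paralog but named for its interphase value too, had a difference of -1.57. The other negative differences were those of SF1 (-1.28), TRIM33 (-1.12), TRIM2 (-1.07), TEAD1 (-0.79), SF3B1 (-0.77), CLOCK (-0.71), ARNTL2 (-0.69), ZBTB44 (-0.56) and TLK1 (-0.54). The other positive ones were those of AP2S1 (1.78), MAPK3 (1.57), CLTA (1.55), CLTB (1.42), JUNB (1.11), PUF60 (0.50) and AP2B1 (0.46). In mitosis JUNB had only 0.835 and 1.18 FPKM without IP and 0.343 and 0.658 FPKM with IP. At such levels the added constant shrinks fold changes. With length and GC trends removed, the difference of PUF60 turned to -0.075, and those of CLOCK, TLK1 and ZBTB44 to 0.076, 0.062 and 0.189. AP2B1, higher in the IP in both phases (0.27 and 0.73), then had -0.42 in interphase.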

How the results depend on the processing

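The median log2 fold change of IP over no IP over the 5 mRNAs was 2.66 in interphase and ran to 2.71 with a pseudocount of 0.1, 2.80 with quantile normalization, 2.78 with median centring, 1.12 with length and GC trends removed (1.09 inside the table's intervals) and 2.54 to 2.77 leaving out 1 library. In mitosis it was 1.93 and went to 1.79, 2.03, 1.17 and 1.15 with quantile normalization, centring and both trend removals, and 1.72 to 2.13 leaving out 1 library. The median difference between phases was -0.72, then -1.01 with quantile normalization, 0.058 and 0.18 with both trend removals, and -0.88 to -0.51 leaving out 1 library. The cause of these shifts was not tested. Inside the intervals the differences were 0.13 for UHMK1, 0.18 for VGLL3 and 0.29 for AAK1 (0.031, 0.058 and 0.138 with the annotated transcript). Without IP, the 4 mRNAs called higher in mitosis became 2 with either trend removal, and 2 to 4 leaving out 1 library. ELK4 turned to -0.063 (quantile), -0.022 (centring), -0.26 and -0.31 (trends) and ran from -0.032 to 0.15 leaving out 1 library. In the IP, the 2 higher and 1 lower became 1 and 2 with quantile normalization, 1 higher with centring, 3 higher and 1 lower with both trend removals, and 1 to 3 higher leaving out 1 library, where UHMK1 had 0.24 and 0.29 with the trends removed and VGLL3 -0.04 with quantile normalization. Over all genes, 5068 higher calls in the interphase IP became 3097 and 2898 with the trend removals. Of the list genes, the trend removals (annotated, then inside the intervals) turned AP2B1 to -0.42 and -0.53 in interphase, JUNB to 0.31 and 0.28, TRIM33 to -0.055 and -0.074 and TRIM2 to -0.02 and -0.034 in mitosis, and the difference of PUF60 to -0.075 and -0.21. JUNB (0.011) and TRIM59 (-0.029) turned in interphase with the annotated transcript, and VGLL4 (0.016) with centring. Of the nearest profiles, the difference between phases turned to 0.444 and 0.524 for RALGPS2, 0.076 and 0.196 for CLOCK, 0.45 and 0.531 for ATP11B, 0.062 and 0.124 for TLK1, 0.189 and 0.312 for ZBTB44, 0.361 and 0.47 for PTAR1, 0.229 and 0.295 for MPP5, 0.154 for LCOR (annotated) and 0.022 for ARNTL2 (inside the intervals). Deviations of same-numbered libraries correlated across genes at 0.088 to 0.528, and no label says what a number shares. With the replicate block, 4 and 0 mRNAs were higher and lower without IP and 2 and 1 in the IP, and the medians stayed 2.66, 1.93 and -0.72.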
